A study of Mus musculus with 16 samples.

Results

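Late regions are stretches of mouse RNA that held little Dazl crosslinking signal after 30 s and 180 s of laser exposure and most of it only at 680 s. They were chosen by their coverage in the 3 libraries made at a laser power of 2.6 mW and the labels' 4.2x Dazl level. A region was called late there when its coverage at 680 s was at least 10 and its coverage at 30 s and at 180 s was each below 50% of that value. Among the 8338 regions found over the 12 libraries, 989 (11.9%) were late, which is 13.5% of the 7303 regions with a coverage of at least 10 at 680 s in that series. The other regions of that coverage were called early (4952 regions, 30 s value at or above 50%) or middle (1362 regions, 50% reached only at 180 s).

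The libraries are KIN-CLIP libraries, in which a pulsed ultraviolet laser links an RNA-binding protein to the RNA it touches for a set time and the linked RNA is sequenced by the iCLIP method. All came from GC-1 spg cells, a mouse cell line derived from spermatogonia, as 1 monoclonal line in which doxycycline induces Dazl. The 12 libraries analysed combine laser powers of 2.6 mW and 1 mW, Dazl levels of 4.2x and 1x, and exposures of 30, 180 and 680 s, with 1 library per condition. Samples without laser exposure, 4 in the labels, were not analysed here, and the values below carry no background from them.

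Dazl is a germ cell RNA-binding protein that recognises short sites around the letters GUU through its RNA recognition motif, mostly in the untranslated ends of messenger RNAs, and is known for promoting translation and stability of its targets. A crosslink forms only while protein and RNA are in contact, so the time needed to fill a region depends on how often and how long the protein sits there and on how readily that contact crosslinks. The coverage given here is the deposited score summed over the bases of a region, so it is a crosslinking signal and not a level of RNA or of bound protein.

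Coverage totals per library ran from 11271 to 252932, and every region was listed in all 12 libraries with a total of at least 1. In the 2.6 mW, 4.2x series 0 regions were lower at 680 s than at 30 s, and 45.4% of the 7303 regions (3318) had exactly the same value at both times, so the libraries of a series do not behave as separate measurements and the p-values below may be too small or too large. Germ cell markers were thinly covered: 4 of 17 genes on the list had a region, Dazl itself had none, and only Etv5, a transcription factor of spermatogonial stem cells, reached 10 at 680 s. Wt1 and Dhh of 9 Sertoli cell markers, Acta2 of 4 peritubular markers and Kdr of 4 endothelial markers also had a region of that coverage, and no Leydig cell or macrophage marker had a region. Crosslinking coverage does not measure expression, so these counts were not read as the cells' identity.

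Sequence could be read for the late regions inside RefSeq promoter windows, which span 250 bases before to 50 bases after a gene start in GRCm38.p6, the assembly called mm10. Of the 989 late regions, 22 lay in such a window, and 12 of these lay in the window of their own gene. These 12 are shown because they are the late regions whose letters can be set against the GTT of the Dazl motif. Each is written 5′ to 3′ on the strand of the gene, as DNA, with every GTT in capitals.
Ccdc151, chr9:22002775-22002791, minus strand: gccagcgaacacgcagg
Klhl11, chr11:100472759-100472775, minus strand: ttgccgcaccGTTcgga
Adgrb2, chr4:129984828-129984844, plus strand: cgggcccggcccgcgca
Cpsf4, chr5:145167216-145167232, plus strand: ctcccggcatccctcgc
Ptprk, chr10:28074805-28074821, plus strand: gcccccgtccctcccag
Cd164, chr10:41519505-41519521, plus strand: tttctcccggacgcctg
Timm8a1, chrX:134541655-134541671, minus strand: tgtaGTTccgGTTccgt
Rtn4, chr11:29693703-29693719, plus strand: gctgcgcGTTacgcccc
Gpd2, chr2:57238410-57238426, plus strand: gggtcggGTTacggtgg
App, chr16:85173674-85173689, minus strand: gggaggcgagagcacc
Tmem126b, chr7:90475992-90476008, minus strand: cacgccctcctgtcagt
Cdk15, chr1:59256850-59256866, plus strand: agagccctcgtgtgagt

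GTT occurred in 4 of these 12 late regions (33.3%) and in 16 of 34 other regions (47.1%) that had a coverage of at least 10 and lay in their own gene's window, searched on the gene strand. With windows of any gene and both strands searched, so that AAC on the printed strand also counted, 9 of 22 late regions (40.9%) and 50 of 80 others (62.5%) held the letters. The 12 late sequences had a median of 70.6% G and C, against 64.7% for the 34 others. These sets are small and come from gene starts, and 7 of the 12 begin upstream of the annotated start, so they describe those windows and not the late regions as a whole.

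Among the sequences with GTT, the region in Klhl11, an adaptor of a cullin ubiquitin ligase, begins 7 bases after the annotated start. It stood at 6, 19 and 39 (30, 180 and 680 s) at 2.6 mW and 4.2x Dazl, at 6, 6 and 38 at 2.6 mW and 1x, at 1, 1 and 29 at 1 mW and 4.2x, and at 1, 1 and 15 at 1 mW and 1x. Timm8a1, which encodes a small chaperone of mitochondrial import, had GTT in 2 places and stood at 5, 13 and 27 in the first of these series and at 2, 1 and 24 in the second. Ccdc151, an axonemal dynein docking gene, had no GTT on its own strand and stood at 1, 1 and 48 and at 4, 1 and 40. In these 3 regions the 680 s library was the highest of each of the 4 series.

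In the series that chose them, the 989 late regions had median coverages of 2, 6 and 30 (30, 180 and 680 s). Early regions stood at 26, 25 and 28 and middle regions at 8, 18 and 29 in the same libraries. The 3 classes thus differed at the short exposures, by the choice, and lay close together at 680 s. Late regions held 2.17% of the library total at 30 s, 4.19% at 180 s and 12.5% at 680 s. These values are a description of the choice and were not tested.

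**Figure D1:**
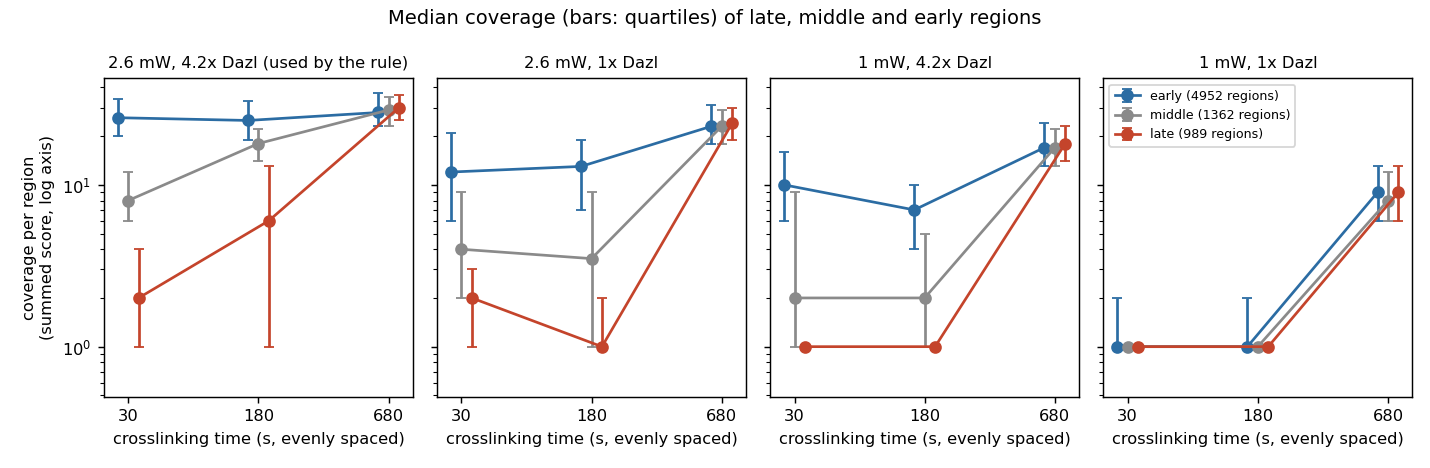
Median coverage per region (summed score, log axis, bars from the lower to the upper quartile) against crosslinking time in seconds, evenly spaced, for early, middle and late regions in the 4 series of libraries. Late regions (red) start at medians of 1 or 2 in every series and meet the other classes at 680 s, where their medians are 30, 24, 18 and 9 from left to right.

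Late regions followed 3 courses up to 180 s. In 353 of them (35.7%) both short exposures were at 1 or 2, so that nearly all of the signal appeared between 180 s and 680 s. Another 560 (56.6%) had already risen at 180 s, from a median of 3 to a median of 11, before reaching 30. The remaining 76 (7.68%) were above 2 but flat or lower at 180 s, with medians of 3, 3 and 37. For most of the late regions, filling had therefore begun by 180 s in this series without passing the 50% limit.

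Values on both sides of the limit were close. Just inside it lay a region shared by Ppib and Snx22 (37, 29 and 75, a highest early share of 49.3%), a region shared by Catsper2 and Pdia3 (32, 32 and 65, 49.2%) and a region of Eef1a1, the translation elongation factor that delivers aminoacyl-tRNA (17, 31 and 63, 49.2%). Just outside it, at exactly 50.0%, were regions of Tram1 (5, 15 and 30), of B3gat2 and Smap1 (2, 9 and 18) and of Cnga3 (3, 10 and 20).

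The 9 libraries of the other 3 series took no part in the choice, but they were not shown to be independent of the libraries that did. Values were ordered across series as well as within them. At 680 s and 1x Dazl, 100% of late, early and middle regions were higher at 2.6 mW than at 1 mW. At 2.6 mW and 1x Dazl the late regions had medians of 2, 1 and 24 at 30, 180 and 680 s, against 12, 13 and 23 for early regions. At 1 mW and 4.2x Dazl they had 1, 1 and 18, against 10, 7 and 17. At 1 mW and 1x Dazl both classes stood at 1, 1 and 9. The share of the library total in late regions was 12.2% to 12.5% at 680 s in all 4 series, and at the shorter exposures it was 3.26% and 2.50% at 2.6 mW and 1x, 2.83% and 3.34% at 1 mW and 4.2x, and 8.44% and 9.76% at 1 mW and 1x.

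Judged by the same rule within the other series, most late regions were late there too. At 2.6 mW and 1x Dazl, 980 of the 989 reached 10 at 680 s and 961 of these (98.1%) were late, against 50.7% of all 7196 regions with that coverage. At 1 mW and 4.2x Dazl, 898 of 934 (96.1%) were late, against 49.0% of 6773. At 1 mW and 1x Dazl, 442 of 450 (98.2%) were late, but so were 95.1% of 3336 regions, so that share is near the background and is no result about the late regions. Of the 450 that reached 10 in all 4 series, 418 (92.9%) met the rule in each.

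The rule was missed by 19, 36 and 8 late regions in the 3 series in that order, and the clearest of these had a high 30 s value. Gcn1, which encodes an activator of the amino acid starvation response, had 42, 16 and 36 at 2.6 mW and 1x Dazl, and Ythdf3, a reader of methylated adenosine in mRNA, had 25, 9 and 29 there. At 1 mW and 4.2x Dazl, Strap (21, 7 and 16), the respiratory complex assembly gene Tmem126b (20, 5 and 17), the kinase gene Pim3 (26, 7 and 23) and Marcks (20, 5 and 19), a substrate of protein kinase C, were higher at 30 s than at 680 s. Regions of Col1a1 (13, 3 and 12) and Cd164 (12, 4 and 12) did not meet the rule at 1 mW and 1x Dazl. Each of these 8 regions was lowest at 180 s in that series.

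The step between 30 s and 180 s ran upwards in the series of the rule and downwards in the other 3, and the library totals moved the same way in each series. At 2.6 mW and 4.2x Dazl, 585 late regions (59.2%) were higher at 180 s than at 30 s and 88 (8.90%) lower, against 37.9% higher and 38.6% lower over all regions. At 2.6 mW and 1x Dazl, 61 (6.17%) were higher and 482 (48.7%) lower, against 29.2% and 45.0%. With 1 mW and 4.2x Dazl, 45 (4.55%) were higher and 122 (12.3%) lower, against 10.9% and 54.7%. With 1 mW and 1x Dazl, 0 were higher and 69 (6.98%) lower, against 0 and 15.7%. In the 3 series outside the rule the direction of this step is therefore no result about the late regions. In the first series it comes from libraries that the rule used. At 180 s, 69.8%, 81.3% and 91.9% of late regions were at 1 in the series outside the rule, in the same order, against 18.8%, 23.3% and 78.8% of all regions with at least 10 in the 2.6 mW, 4.2x series.

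Time was tested in the 9 libraries that took no part in the choice, with limma on log2(coverage + 3), the series as a block and Benjamini-Hochberg adjustment over all 8338 regions. Changes are given on that scale, which understates the change of regions near 1. All 989 late regions were higher at 680 s than at 180 s, but so were 86.7% of all regions. The median log2 change was 2.11 in late regions, with quartiles of 1.84 and 2.38, and 1.22 over all regions. Against 30 s, 987 late regions were higher, where 73.7% of all regions were, with medians of 2.04 and 1.06.

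When each library was centred on the median of its regions, so that a change is read against the change of the median region, 557 of the 989 late regions (56.3%) were higher at 680 s than at 180 s and 0 were lower by limma with Benjamini-Hochberg adjustment. Over all regions 11.8% were higher and 12.3% lower. Over those with at least 10 at 680 s in the series of the rule it was 13.5% and 0.466%. Of the 1028 lower calls, 994 were in regions under 10 there, which the rule leaves out. The median centred change was 0.90 in late regions and 0.01 over all regions. At an unadjusted limma p under 0.05, 746 late regions were higher and 0 lower. The share of all regions at that threshold was not counted, so these 2 counts are no result about the late regions. Against 30 s the counts were 587 higher and 0 lower, where 12.6% of all regions were higher and 15.1% lower. Of the regions with at least 10, 14.4% were higher and 3.55% lower. Of the early regions 2.71% were higher than the median change between 180 s and 680 s, and of the middle regions 21.4%.

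Calls on centred values depended on which regions and libraries were kept. When only regions with at least 10 at 680 s in each of the 3 series were tested, 64 of 450 late regions (14.2%) were higher at 680 s than at 180 s, against 2.94% of all 3328 regions, and 116 (25.8%) were higher than at 30 s, against 5.59%. The median centred changes of the late regions were then 0.87 and 0.92. Without the 1 mW, 1x series 853 late regions were higher at 680 s than at 180 s. Without the 2.6 mW, 1x series there were 244 and without the 1 mW, 4.2x series 224. Of all regions 19.6%, 5.91% and 5.49% were then higher. For 680 s against 30 s the same omissions gave 861, 352 and 173, against 20.2%, 9.46% and 4.13% of all regions. Among the 353 late regions that had been at 1 or 2 at both short exposures 214 were called, among the 560 already risen at 180 s 300, and among the 76 flat ones 43, with median log2 changes as deposited of 2.14, 2.10 and 2.14.

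**Figure D2:**
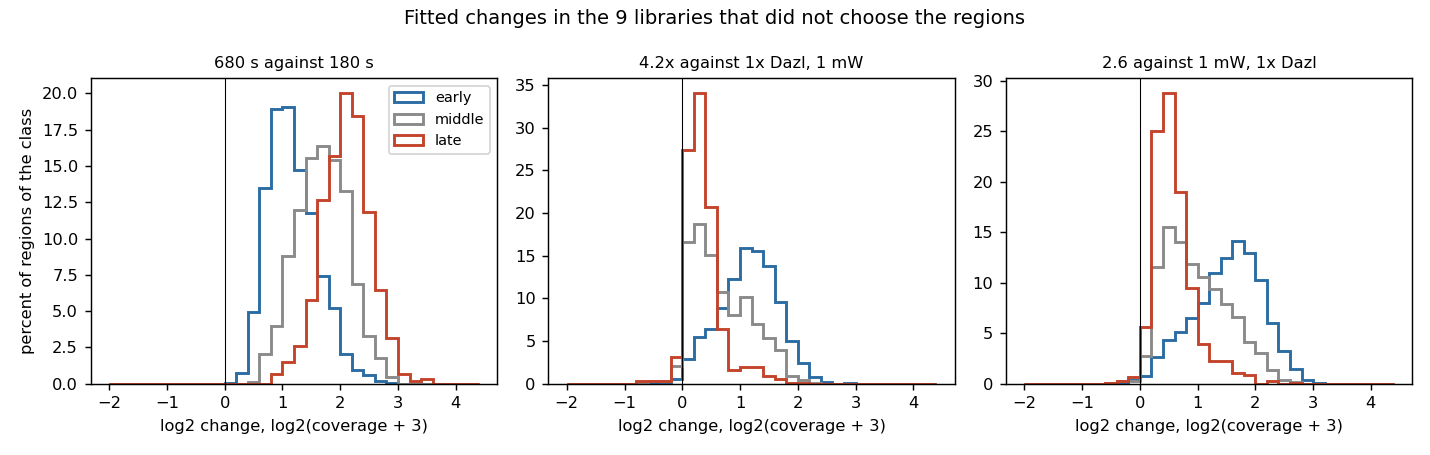
Distribution of fitted log2 changes (x axis, on log2(coverage + 3)) as a percent of the regions of each class (y axis), for 680 s against 180 s, 4.2x against 1x Dazl at 1 mW, and 2.6 mW against 1 mW at 1x Dazl, in the 9 libraries that did not choose the regions. Late regions (red) have a median of 2.11 for time and of 0.30 and 0.51 for Dazl level and laser power, to the right of early regions in the first panel and to their left in the others.

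Dazl level and laser power could each be compared without the libraries of the rule. More Dazl at 1 mW raised 104 late regions (10.5%) and lowered 0 by limma with Benjamini-Hochberg adjustment, where 55.9% of all regions rose and 0.0120% fell, and the median log2 change over the 3 times was 0.30 against 0.84. More laser power at 1x Dazl raised 402 late regions (40.6%), where 73.0% of all regions rose, with medians of 0.51 and 1.17. On centred values 1 late region was higher and 135 (13.7%) were lower with more Dazl. Over all regions 5.11% were higher and 15.5% lower. Over regions with at least 10 at 680 s in the series of the rule it was 5.83% and 4.53%. For laser power 4 late regions were higher and 394 (39.8%) lower. Over all regions 12.3% were higher and 22.4% lower, and over those with at least 10 it was 14.1% and 11.9%. Without the libraries of 30, 180 or 680 s the late regions raised as deposited were 21, 30 and 43 for Dazl. Of all regions 18.6%, 20.1% and 24.1% were raised. For laser power they were 256, 250 and 115, against 63.3%, 52.2% and 46.9%. The late regions lower on centred values were 0, 0 and 864 for Dazl, against 9.29%, 0 and 35.8% of all regions. For laser power they were 2, 3 and 854, against 11.1%, 9.34% and 37.7%. These lower calls thus depended on which exposures were kept. With neither trend nor robust settings 0 were lower for Dazl and 330 for laser power, against 0 and 20.3%.

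By exposure, late regions stood apart from early ones at 30 s and 180 s and close to them at 680 s. With 4.2x against 1x Dazl at 1 mW, 18.5% of late regions were higher at 30 s, 17.0% at 180 s and 95.4% at 680 s, against 90.9%, 92.1% and 96.5% of early regions. The summed coverage of late regions was 1.98 times as high at 680 s, and that of early regions 1.93 times. With 2.6 mW against 1 mW at 1x Dazl, 57.7%, 28.3% and 100% of late regions were higher, against 94.6%, 93.4% and 100% of early regions. The 680 s ratios of summed coverage were 2.62 for late and 2.57 for early regions. Middle regions lay between late and early ones at 30 s and 180 s, with 57.5% and 59.2% higher for Dazl and 81.6% and 70.6% for laser power. Medians of late regions at the 2 short exposures were 1 or 2 in all 3 of these series, at or next to the lowest listed value, which limits any change that could be seen there. These values per exposure rest on 1 library against 1 and were not tested.

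Of the late regions, the highest coverage at 680 s in the 2.6 mW, 4.2x series was in a 42-nt region of Tm9sf3, a membrane protein of the secretory pathway, at chr19:41214403-41214444. Its coverages at 30, 180 and 680 s were 71, 78 and 159 at 2.6 mW and 4.2x Dazl, 38, 39 and 129 at 2.6 mW and 1x, 16, 21 and 105 at 1 mW and 4.2x, and 9, 6 and 33 at 1 mW and 1x. All 4 of its 680 s values exceeded every shorter exposure of the same series. In the 9 libraries outside the choice its log2 change from 180 s to 680 s was 1.94 ± 0.41 (SE; limma adjusted p = 2.0e-05). On centred values its change was 0.73 and did not pass (limma adjusted p = 0.14).

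A 30-nt region of Canx, which encodes the endoplasmic reticulum chaperone calnexin, stood at 40, 33 and 120 in the series of the rule. In the other series it stood at 27, 23 and 103, at 24, 8 and 76, and at 6, 3 and 37. The region lies at chr11:50296259-50296288, 2302 nt before the annotated 3′ end. It passed the test of time on both scales, with log2 changes of 2.54 ± 0.40 (SE) as deposited and 1.33 ± 0.34 centred (limma adjusted p = 2.4e-08 and 0.0023). Without the 1 mW, 4.2x series the centred change was 1.13 and no longer passed (limma adjusted p = 0.22).

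Tnpo3, the import receptor of serine- and arginine-rich splicing factors, had a 17-nt region at chr6:29560227-29560243, 19400 nt from its 3′ end. Coverage there was 10, 36 and 96 at 2.6 mW and 4.2x Dazl, 11, 18 and 90 at 2.6 mW and 1x, 2, 2 and 48 at 1 mW and 4.2x, and 1, 1 and 28 at 1 mW and 1x. The 2 series at 2.6 mW were already above 10 at 180 s and the 2 at 1 mW were not. Its centred log2 change from 180 s to 680 s was 1.61 ± 0.33 (SE; limma adjusted p = 1.6e-04), and without the 1 mW, 4.2x series it was 1.30 and did not pass (limma adjusted p = 0.097).

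Ap1g1, a large subunit of the clathrin adaptor AP-1, had a region at chr8:109855612-109855628 that also lies within the gene model Gm17344. It held 2, 2 and 83 in the series of the rule, and 2, 1 and 58, then 1, 1 and 59, then 1, 1 and 25 in the others. No library of 30 s or 180 s exceeded 2, and no library of 680 s was below 25. Its change from 180 s to 680 s was the largest of all late regions, at 3.56 ± 0.32 (SE) log2 as deposited and 2.35 centred (limma adjusted p = 5.5e-16 and 1.5e-07). Dazl level and laser power gave changes of 0.38 and 0.48 over the 3 exposures, with limma adjusted p = 0.32 and 0.17. These average in the short exposures, where no library exceeded 2. At 680 s alone the region held 59 against 25 with more Dazl at 1 mW and 58 against 25 with more laser power at 1x. Each is 1 library against 1 and was not tested.

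Amotl2, an angiomotin-like scaffold of cell junctions, was also low at both short exposures, in a region close to its 3′ end. Its region at chr9:102733106-102733141, 277 nt from that end, had 3, 2 and 80 in the series of the rule, 3, 2 and 60 at 2.6 mW and 1x, 2, 2 and 40 at 1 mW and 4.2x, and 2, 2 and 30 at 1 mW and 1x. The change in the 9 libraries was 3.16 ± 0.34 (SE; limma adjusted p = 2.2e-13).

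The 9 other regions among the 15 of highest coverage, leaving aside a second region of Malat1, lay in Nedd4 and Rbx1 (a ubiquitin ligase and the RING subunit of cullin ligases), Cyrib (an inhibitor of Rac signalling), Tmem33 (an endoplasmic reticulum membrane protein), Rint1 (a vesicle tether), App (the amyloid precursor), Upk3b (a uroplakin), Col1a1 and Malat1. At 680 s in the series of the rule they held between 77 and 108, and at 30 s between 13 and 52. Every one was higher at 680 s than at 180 s as deposited, with log2 changes from 1.85 (Rbx1) to 2.66 (Col1a1). On centred values Cyrib, Tmem33, Upk3b and Col1a1 passed, and Nedd4 (0.87, limma adjusted p = 0.050308), Rbx1, Rint1, App and this Malat1 region did not. Each of the 4 that passed was lost when a certain series was left out. Without the 1 mW, 4.2x series Cyrib, Tmem33 and Upk3b had centred changes of 0.74, 0.45 and 1.2 (limma adjusted p = 0.48, 0.70 and 0.13). Without the 2.6 mW, 1x series Cyrib, Upk3b and Col1a1 had 0.86, 0.72 and 1.07 (limma adjusted p = 0.26, 0.37 and 0.11). Cyrib, Tmem33 and Upk3b also did not pass with a pseudocount of 1 (limma adjusted p = 0.091, 0.072 and 0.073). Nedd4, Rint1 and App passed on centred values without the 1 mW, 1x series (limma adjusted p = 0.0039, 0.038 and 0.018). As deposited, without the 1 mW, 1x series Tmem33, Rbx1 and Upk3b no longer passed, with limma adjusted p = 0.061, 0.093 and 0.062.

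**Figure D3:**
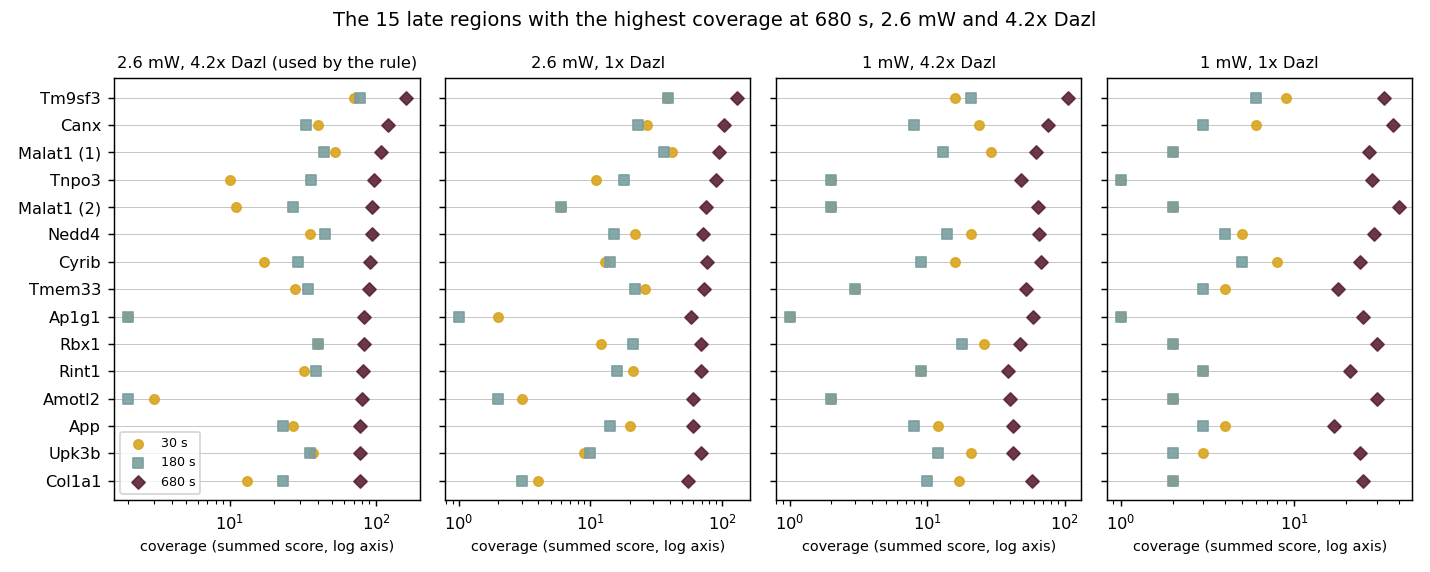
Coverage (summed score, log axis) at 30, 180 and 680 s of the 15 late regions with the highest 680 s value at 2.6 mW and 4.2x Dazl, 1 row per region, in the 4 series. The 680 s value (dark diamond) is the highest in every row and panel, and Ap1g1 and Amotl2 stay at 1 to 3 at the shorter exposures throughout.

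After Ap1g1, the largest changes with time outside the rule's libraries were in Ppp1cb and Gfm2. Ppp1cb, a catalytic subunit of protein phosphatase 1, had 2, 1 and 63 at 2.6 mW and 1x, 1, 1 and 46 at 1 mW and 4.2x, and 1, 1 and 28 at 1 mW and 1x, a log2 change of 3.54 ± 0.32 (SE; limma adjusted p = 5.5e-16). Gfm2, a mitochondrial ribosome recycling factor, held 2, 1 and 57, then 1, 1 and 48, then 1, 1 and 28 in the same libraries, although it had already reached 17 and 33 of 68 at the shorter exposures with 2.6 mW and 4.2x Dazl. Next came a region of Malat1 (3.33), described with that gene, Tnnc2 (fast muscle troponin C, 3.31), Amotl2 (3.16) and Prkd1 (protein kinase D1, 3.13). The last of the 10 were 2 regions of Celf1, an RNA-binding protein of splicing and mRNA decay (3.11 and 3.05), and between them another region of Malat1 (3.06). At 30 s and 180 s in the 3 series, 8 of the 10 regions did not exceed 2. The exceptions were Amotl2, at 3 in 1 library, and the first of the Malat1 regions, at 6 and 6 at 2.6 mW and 1x.

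At the other end lay regions of low final coverage. Pde6a, a subunit of the rod phosphodiesterase, had the smallest change with time (0.91 ± 0.17 SE log2, limma adjusted p = 3.3e-06), from 1, 3 and 12 in the series of the rule to 1, 1 and 8, 2, 2 and 5, and 1, 1 and 3 in the others. Runx3 and Kdr, a transcription factor and the main receptor of vascular endothelial growth factor, ended at 10 and 12 in the series of the rule, with a change of 0.97 each. Fkbp1a (0.94) and Zzz3 (0.97) differed from these in having higher early values elsewhere: Zzz3 stood at 7, 8 and 15 at 2.6 mW and 1x and at 11, 4 and 13 at 1 mW and 4.2x. On centred values all 5 were slightly below the median change, between -0.30 and -0.24, and none passed. Without the 1 mW, 1x series Pde6a (1.07), Fkbp1a (0.91) and Zzz3 (0.95) no longer passed as deposited, with limma adjusted p = 0.063, 0.071 and 0.11.

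Late regions were spread over many genes. Of the 989, 932 could be assigned to a gene and fell in 756 genes, which is 28.5% of the 2655 genes with a region of at least 10. A single late region was found in 634 of these genes and 2 or more in 122. In 521 genes late regions stood beside early or middle ones, and in 235 genes every region of that coverage was late, 218 of which had a single region.

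Malat1, a long noncoding RNA of nuclear speckles, had the most late regions, 9 of its 38. The highest, at chr19:5796991-5797015, had 52, 44 and 108 in the series of the rule, 42, 36 and 95 at 2.6 mW and 1x, 29, 13 and 62 at 1 mW and 4.2x, and 2, 2 and 27 at 1 mW and 1x. A second, at chr19:5796238-5796274 and 548 nt from the 3′ end, had 11, 27 and 93, then 6, 6 and 76, then 2, 2 and 64, then 2, 2 and 40. The first already held 42 and 36 of 95 at the short exposures at 2.6 mW and 1x, and the second held 6 and 6 of 76. Their log2 changes from 180 s to 680 s were 1.98 ± 0.40 and 3.33 ± 0.37 (SE; limma adjusted p = 9.7e-06 and 9.2e-13).

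Another Malat1 region, at chr19:5800191-5800207, was at 1 in all 8 libraries of 30 s and 180 s and at 51, 36, 35 and 22 at 680 s. Of the 9 late regions 6 lay within 1301 nt of the 3′ end and the other 3 lay between 2465 and 3724 nt from the gene start. Summed over the 9, coverage in the series of the rule was 100, 160 and 538, while the other 29 regions of Malat1 summed to 1001, 1096 and 1461. At 2.6 mW and 1x the late sum was 70, 52 and 428 and the other sum 534, 529 and 1211. In both series the late regions were lower at 30 s against their own 680 s sum than the others of the same RNA. In the series of the rule this follows from the choice, and at 2.6 mW and 1x it was not tested. In the centred fit 8 of the 9 were higher at 680 s than at 180 s.

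**Figure D4:**
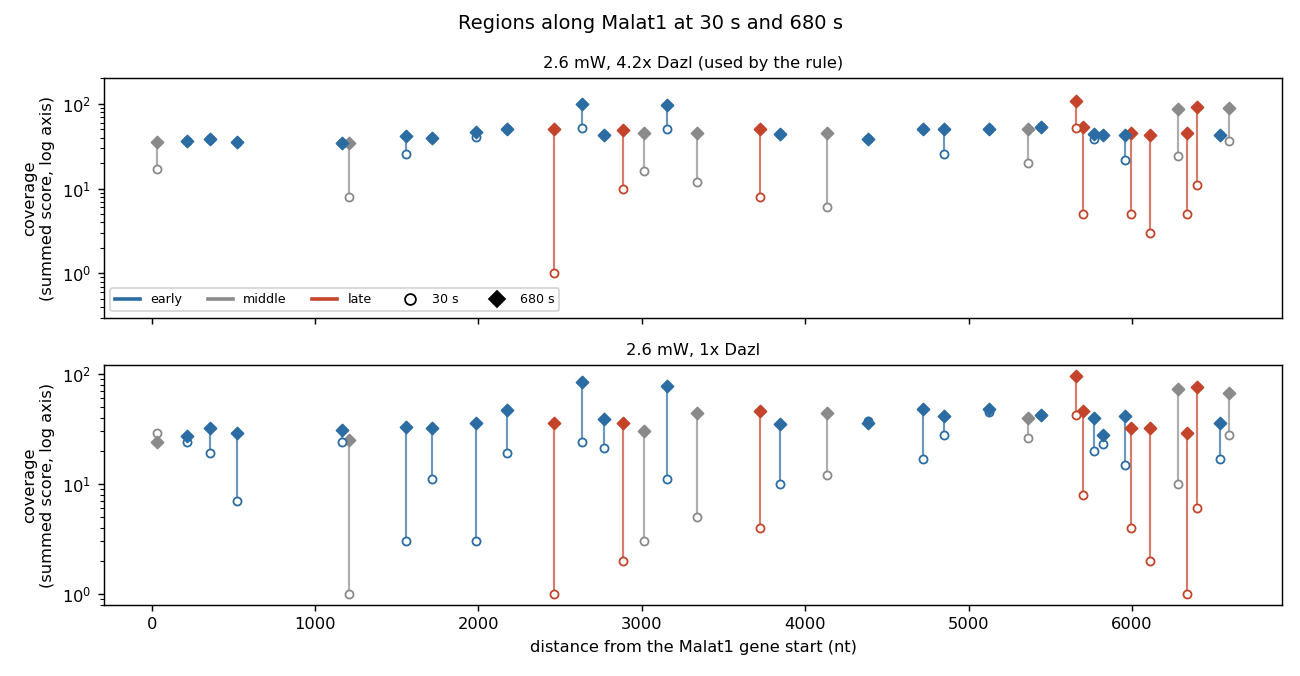
Coverage (summed score, log axis) of the Malat1 regions at 30 s (open circles) and 680 s (filled diamonds) against the distance in nt from the gene start, at 2.6 mW with 4.2x Dazl (top) and 1x Dazl (bottom), coloured by class. The 9 late regions (red) lie among early and middle ones, 6 of them in the last 1301 nt of the gene, and the region at 2465 nt is at 1 at 30 s in both panels.

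Neat1, the long noncoding RNA that builds paraspeckles and lies next to Malat1, had 5 late regions among 62. They summed to 24, 49 and 176 in the series of the rule and to 15, 12 and 137 at 2.6 mW and 1x. Its share of late regions was 8.07%, against 23.7% in Malat1, and the difference was not tested. With the U12 small nuclear RNA gene Rnu12 (5, 17 and 55) and the rest of the list, the long noncoding and small RNA host genes had 16 late regions among 112 (14.3%), of which 14 (87.5%) were called higher at 680 s than at 180 s on centred values, with a median change of 1.44. Of these 14, 8 are the Malat1 regions. Such counts, here and for the lists that follow, stand against 56.3% of all late regions and 11.8% of all regions, with a median of 0.90 in all late regions.

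Genes of the extracellular matrix and cytoskeleton had 42 late regions among 315 (13.3%), near the 13.5% over all genes. The collagen gene Col1a1 had 6 of 43 and Timp2, a matrix metalloproteinase inhibitor, 6 of 29. Timp2 regions at chr11:118303022-118303038 and chr11:118303526-118303542 went from 1 and 1 to 39 and 43 at 680 s in the series of the rule, and from 1 or 2 to 37 and 40 at 2.6 mW and 1x. All 6 Timp2 regions and 4 of the 6 Col1a1 regions were higher at 680 s than at 180 s on centred values. For the list it was 30 of 42 (71.4%), with a median centred change of 1.01. Sparc, a collagen-binding glycoprotein, had regions at 3, 3 and 49 and at 1, 1 and 48, and the proteoglycan Sdc4 had 4, 3 and 47 in the series of the rule.

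Among the 127 genes with 8 or more regions, Cd164, a sialomucin, had the highest late share, with 5 of 13 (38.5%). Pdia6, a disulphide isomerase, had 3 of 8 (37.5%), and Fkbp1a, a prolyl isomerase, and Tmed7, a cargo receptor of transport vesicles, each had 4 of 11 (36.4%). The virus receptor Cxadr had 5 of 15 and the calcium-binding Calu 4 of 12 (33.3% each). Itgav, an integrin chain, had 4 of 15 and Bpnt2, a Golgi phosphatase, 4 of 13. In Cd164 the late regions summed to 17, 46 and 156 in the series of the rule and the 8 others to 303, 330 and 394. In Calu they summed to 16, 35 and 134 and the others to 257, 262 and 311. Of the 127 genes 37 had no late region. These genes are named for that share, so it is a description and was not tested.

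In 17 genes with 2 or more regions every region was late. Lbh, a transcription regulator of embryonic development, had 3, which summed to 7, 23 and 81 in the series of the rule and to 15, 7 and 60 at 2.6 mW and 1x. Tnpo3 summed to 15, 51 and 130, Ppie, a cyclophilin of the spliceosome, to 12, 38 and 91, the histone gene H4c2 to 16, 35 and 90 and Ndufa1, a subunit of respiratory complex I, to 8, 27 and 90. Id3, an inhibitor of basic helix-loop-helix factors, summed to 10, 19 and 75. Styxl1 and Clybl had the lowest sums at 180 s, with 2, 2 and 40 and 3, 4 and 63. The other 9 genes, Seh1l, Med1, Sfi1, Grip1, Nfx1, Ncoa7, Synpo2l, Crct1 and Wdr13, ended between 29 and 67.

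Among genes of protein synthesis the share of late regions was near that of all genes. Ribosomal protein genes had 7 of 56 (12.5%) and translation factors 5 of 46 (10.9%). Rpl8 and Rpl35a went from 2 and 2 to 41 and 34 in the series of the rule, and the elongation factors Eef2 and Eef1a1 from 2 and 2 to 42 and from 2 and 1 to 35. On centred values 4 of the 7 and 4 of the 5 were higher at 680 s than at 180 s, against 56.3% of all late regions, with medians of 0.84 and 1.09.

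Genes of RNA processing gave like values. Splicing factors and hnRNP proteins had 16 late regions of 153 (10.5%), factors of mRNA decay and poly(A) tails had 5 of 38 (13.2%), and RNA helicases had 8 of 42 (19%). Hnrnpu, a nuclear matrix RNA-binding protein, stood at 13, 25 and 66 in the series of the rule and at 4, 5 and 54 at 2.6 mW and 1x. The helicase Ddx5 had regions at 2, 8 and 42 and at 4, 14 and 34, and Dhx15 stood at 1, 3 and 36. Called higher on centred values were 7 of 16, 2 of 5 and 4 of 8, against 56.3% of all late regions, with medians of 0.71, 0.86 and 0.99.

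Replication-dependent histone genes had 4 late regions among 11 (36.4%), the highest share of the 20 lists, from few regions. H4c2 stood at 7, 15 and 45 and at 9, 20 and 45, H4c8 at 6, 20 and 44 and H2ac8 at 1, 1 and 32 in the series of the rule. At 2.6 mW and 1x Dazl the 680 s values of the 4 were 35, 44, 43 and 31 and no shorter exposure exceeded 7. All 4 were higher on centred values, against 56.3% of all late regions, with a median of 1.31. Reads of near-identical histone genes may be shared between copies, so the copy is uncertain. Cell cycle and mitosis genes had 14 of 88 (15.9%), with Cenpa, the centromeric histone, at 2, 3 and 34 and Kif23, a kinesin of cytokinesis, at 2, 10 and 37. Of these 14, 9 (64.3%) were called higher on centred values, against 56.3% of all late regions.

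Chaperone and stress genes had 21 late regions of 141 (14.9%), and 15 of the 21 (71.4%) were higher on centred values, against 56.3% of all late regions, with a median of 0.95. Besides Canx they included Hsp90ab1, a cytosolic chaperone (5, 5 and 44), and Hsp90b1, its counterpart in the endoplasmic reticulum (6, 14 and 37). Vesicle traffic genes had 28 of 206 (13.6%), with 14 called (50.0%) and a median of 0.86. Vps4a, an ATPase of endosomal sorting, had high early values (33, 30 and 71) and was not late at 2.6 mW and 1x Dazl (34, 21 and 55), while Rab3ip, an exchange factor of Rab proteins, stood at 2, 1 and 52. Solute carriers had 16 of 135 (11.9%), with 11 called (68.8%) and a median of 0.93, among them the 3 late regions of the amino acid transporter Slc38a2, at 1, 1 and 54, at 9, 23 and 48 and at 1, 1 and 37.

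Signalling genes lay close to the whole as well. Kinases and phosphatases had 34 of 246 (13.8%), with 20 (58.8%, against 56.3% of all late regions) called higher on centred values and a median of 1.02, and growth factors, receptors and their effectors 17 of 101 (16.8%), with 8 called (47.1%) and a median of 0.89. Tgfbr2, which encodes a TGF-beta receptor, stood at 1, 1 and 34, Gas1, a growth arrest membrane protein, at 4, 4 and 46, and Ctnnb1, which encodes beta-catenin, at 3, 13 and 34. Ubiquitin enzymes had 23 of 187 (12.3%), with 10 called (43.5%) and a median of 0.81, and chromatin regulators 12 of 96 (12.5%), with 6 called (50.0%) and a median of 0.83. Zinc finger proteins had the lowest share, 9 of 101 (8.91%), with 3 called (33.3%) and a median of 0.73. Nuclear-encoded mitochondrial genes had 9 of 51 (17.6%) with 6 called, nuclear transport 3 of 29 (10.3%) with 2 called and apoptosis 3 of 21 (14.3%) with 2 called. The germ cell marker Etv5 stood at 2, 1 and 26 in the series of the rule and at 1, 1 and 18, 1, 1 and 17 and 1, 1 and 12 in the others.

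Several features were not limits of the rule, although width enters the coverage and the joining of intervals shapes length and spacing. In those that follow, the values of late and middle regions lay closer to each other than to those of early regions. Exactly 17 nt long were 93.7% of late, 94.0% of middle and 82.7% of early regions. The median distance to the nearest region was 130 nt for late, 117 nt for middle and 86 nt for early regions. Within 1000 nt of the nearer gene end lay 36.6% of late, 39.1% of middle and 45.4% of early regions, and beyond 10000 nt lay 15.2%, 14.7% and 9.69%. The median distance to that end was 1697.5 nt for late, 1539 nt for middle and 1195 nt for early regions. Genes with 1 region had a late share of 17.8%, genes with 2 of 15.7%, genes with 3 of 12.5% and genes with 8 or more of 11.8%. No test was made of these shares, since regions of a gene are not independent.

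**Figure D5:**
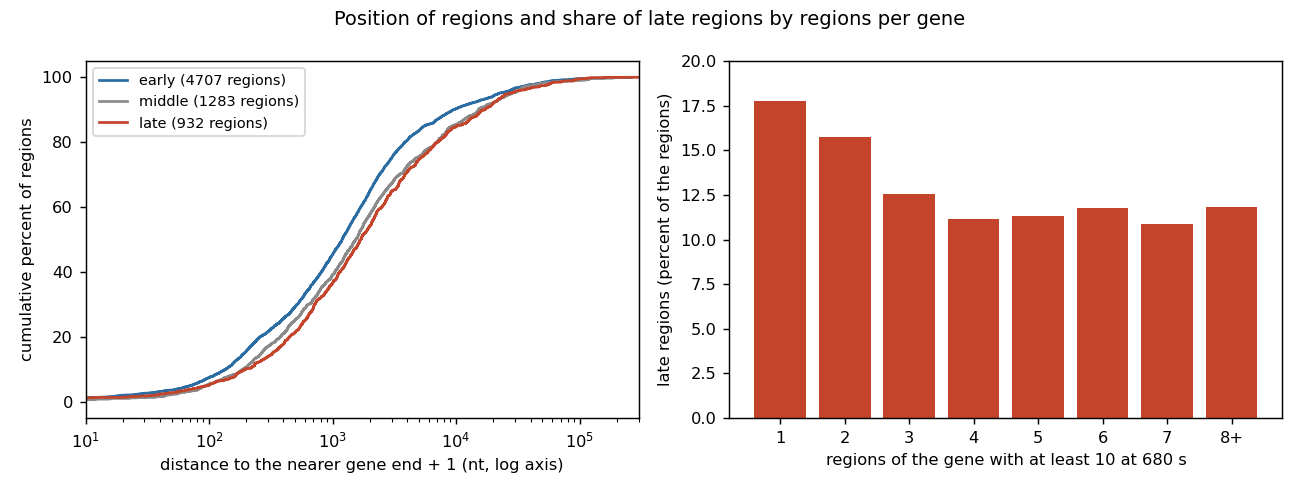
Left, cumulative percent of regions against distance to the nearer gene end plus 1 (nt, log axis) for the regions of each class with an assigned gene. Right, percent of regions that are late (bars from 0) in genes with 1 to 7 and with 8 or more regions of at least 10. Late regions (red) lie farther from gene ends than early ones (blue), with medians of 1697.5 nt and 1195 nt, and the late share falls from 17.8% to 11.8%.

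Neighbouring regions were counted in pairs. Of 2378 pairs of regions at most 100 nt apart, both were late in 36 and 1 of the pair in 437. The share of late regions was 14.1% among the neighbours of late regions and 10.7% among all regions with such a neighbour. Rps3, a ribosomal protein gene (5, 12 and 34 beside 3, 15 and 33), and H4c2 each had such a pair. By strand, 74.6% of late regions had a gene whose direction was known, below the 80% set for such a check, so no count by 5′ and 3′ end is given.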

How the data were processed

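The deposited values are a score that the authors call normalized coverage, in whole numbers per interval without strand. The build (mm10) and the tools Bowtie2 and FastQC, without versions, are named per the submitters' processing notes. The sources used here do not state how reads were counted and normalized or how sites were picked, so the depth in reads is unknown and no counting interval is given. Intervals at most 10 nt apart in any of the 12 libraries were joined into regions, and a region's coverage is the sum of width times score. Each condition has 1 library. The 3 libraries of the 2.6 mW, 4.2x series chose the members, so tests used the other 9: limma 3.58.1 in R 4.3.3 on log2(coverage + 3) of all 8338 regions, with series and time as terms (4 residual degrees of freedom), trended and robust eBayes and Benjamini-Hochberg adjustment at 0.05. The same fit was made after centring each library on its median region. P-values rest on the misfit left after the series and time terms, pooled over regions by eBayes, and not on a spread between replicates. The pooling had a median of 106.9 prior degrees of freedom as deposited and 39.13 centred, so the smallest p-values come largely from it. With neither trend nor robust settings the change of Ap1g1 from 180 s to 680 s as deposited had limma adjusted p = 6.35e-04. Regions were assigned to genes by RefSeq gene span in GRCm38.p6 (1 gene, or 1 protein-coding gene among several), and 57 of 989 had no assigned gene. Overlapping genes cannot be told apart without strand. Exons were not used here. Genes named are the 15 members with the highest 680 s coverage, the 10 genes with most members, the 10 largest and 5 smallest changes with time, members of the 20 gene lists, and the regions at the limit; others were chosen after their values were seen. The members and lists were chosen with earlier results of these data known.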

Additional observations from a re-analysis of the deposited data

Results flagged for a closer look

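The step from 30 s to 180 s ran upwards in the series that chose the late regions and downwards in the other 3. Summed over the 989 late regions, the log2 change of coverage from 30 s to 180 s was 1.04 at 2.6 mW and 4.2x Dazl, -0.481 at 2.6 mW and 1x Dazl, -0.385 at 1 mW and 4.2x Dazl and -0.194 at 1 mW and 1x Dazl. Summed over all 8338 regions it was 0.0940, -0.0997, -0.625 and -0.404 in the same order. The whole libraries thus moved the same way, and at 1 mW they fell by more than the late regions. At 30 s and 1 mW, 79.1% (4.2x Dazl) and 88.3% (1x Dazl) of late regions were already at 1, the lowest listed value, which limits any fall. At 2.6 mW and 4.2x Dazl the sum over all regions includes the late regions and a rise of 0.975 in middle regions, while early regions changed by -0.0497. The difference was not tested, since each series has 1 library per time, and the first value comes from libraries that the rule used.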

How the results depend on the processing

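The number of late regions moved to 1793 with a limit of 60% and stayed within 1.5 times of 989 (692 to 1045) with a limit of 40%, at least 20 at 680 s or other joining distances. Late shares elsewhere became 99.1% and 96.1% (limits of 40% and 60%) at 2.6 mW and 1x, 98.6% and 91.8% at 1 mW and 4.2x, and 100% of 46 with at least 20 at 680 s at 1 mW and 1x. Over all regions of that coverage the shares were 42.5% and 60.8%, 40.5% and 60.3%, and 96.6%. The last late share is thus near the background and is no result about the late regions. With at least 10 at 680 s in each series, only 450 late regions were tested. All 450 rose with time in both comparisons as deposited, as did 97.8% (against 180 s) and 83.7% (against 30 s) of all 3328 regions. On centred values 64 late regions (against 180 s) and 116 (against 30 s) were higher, against 2.94% and 5.59%. As deposited 48 rose with Dazl and 164 with laser power, against 60.2% and 78.1%. Without trend and robust settings laser power raised 217, against 65.1% of all regions. Centring left 1 for Dazl and 4 for laser power, against 5.11% and 12.3%. With a pseudocount of 10, 3 late regions were lower in each centred comparison of time, against 14.0% (180 s) and 17.0% (30 s) of all regions. For 680 s against 180 s as deposited, an alternative was chosen after seeing the data. Counting only late regions with at least 3 at 30 s and 180 s at 2.6 mW and 1x left 171, all higher at 680 s. The share of all regions under that filter was not counted. Without it, 86.7% of all regions and 92.1% of those with at least 10 were higher, so the 171 are no result about the late regions. Leaving out 1 series gave 224 to 853 (against 180 s) and 173 to 861 (against 30 s) centred calls, with 0 to 2 lower against 30 s. Of all regions 5.49% to 19.6% and 4.13% to 20.2% were higher, and 12.2% to 15.3% were lower against 30 s. Leaving out 1 exposure gave 21 to 43 raised for Dazl and 115 to 256 for laser power as deposited. Of all regions 18.6% to 24.1% and 46.9% to 63.3% were raised. On centred values it gave 0 to 864 lower for Dazl and 2 to 854 for laser power. Of all regions 0 to 35.8% and 9.34% to 37.7% were lower. The uncalled centred changes of Pde6a, Runx3 and Kdr turned to 0.01329, 0.1055 and 0.1055 without the 1 mW, 1x series, and spanned -0.6567 to 0.01329, -0.4957 to 0.1055 and -0.4957 to 0.1055 when any series was left out. The cause of these moves was not tested. The tests of time keep the series, and those of Dazl and laser power the exposure, as a block. No replicate number could be used as a block, since each condition has 1 library. With the depth in reads unknown and 1 the lowest listed value, changes among regions near 1 could not be resolved.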

Other observations

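Of the late regions, 57 had no assigned gene, 19 of them in no gene span and 38 in several spans. By chromosome the late share of regions with a coverage score of at least 10 at 680 s in the series of the rule ran from 8.06% on X (15 of 186) to 18.6% on chromosome 14 (29 of 156), leaving out Y with its single region, in Kdm5d, a histone demethylase (3, 13 and 27 in the series of the rule). These shares were not tested.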
